A study of Mus musculus with 2 samples.

Results

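The genes described here were 9 members of the complement system: the C1q chain genes C1qa, C1qb and C1qc, the components C2, C3 and C4b, factor B (Cfb), the C1 inhibitor (Serping1) and the receptor of the C3a fragment (C3ar1). They were chosen by name, and all 9 had a row among the 20140 genes of the tables. The tissue was submandibular and sublingual salivary gland of female C57BL6/J mice aged 14 weeks. In the ligated group a metal clip had closed the main ducts for 14 days, and in the mock group the ducts had been exposed without a clip and the mice had healed for 14 days. Both groups went through the same dissociation, bead depletion of cells bearing EpCAM (an epithelial surface protein) or Ter119 (a red cell surface protein) and removal of dead cells. Each group was 1 droplet library (10X Genomics) from 2 pooled glands (the labels do not say from how many mice), so no difference below carries a test, and each describes these 2 libraries.

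Complement is a cascade of plasma and tissue proteins that tags targets for removal. In the classical pathway C1q, built from the chains of C1qa, C1qb and C1qc, binds immune complexes or dying cells. Its partner protease C1r then activates the protease C1s, which cuts C4 and C2 to form a convertase. That convertase cuts C3, the component on which all pathways meet, and factor B forms the convertase of the alternative pathway. C1 inhibitor blocks C1r and C1s, and the C3a fragment acts through C3ar1. Liver makes most plasma complement, but macrophages are the main source of C1q, and stromal cells of many tissues make C3, factor B, C1r, C1s and C1 inhibitor.

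All 9 genes lie on the minus strand in GRCm38, and all are protein coding in GENCODE M21. The C1q chain genes form a cluster on chromosome 4, with C1qb at chr4:136880129-136886187, C1qc at chr4:136889804-136893065 and C1qa at chr4:136895917-136898803, each with 3 exons. C4b (chr17:34728380-34743882, 41 exons), Cfb (chr17:34856374-34862518, 18 exons) and C2 (chr17:34862604-34898265, 18 exons) lie close together on chromosome 17, where C3 (chr17:57203970-57228136, 41 exons) is also found. Serping1 is at chr2:84765387-84775444 with 8 exons, and C3ar1 is at chr6:122847138-122856161 with 2 exons.

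RefSeq promoter sequences (GRCm38.p6) matched 4 of the 9 genes: C1qb, C1qc, C3 and C3ar1. The 250 bases before each RefSeq start are printed 5′ to 3′ on the gene's strand, to set the genes that were highest in macrophage-like cells (C1qb, C1qc, C3ar1) beside one that was highest in fibroblast-like cells (C3). Capitals mark a match to any of 5 motifs, which were picked after the sequences had been seen and searched on both strands over the window from 250 bases before to 50 bases after the start.
C1qb, chr4:136886201-136886450: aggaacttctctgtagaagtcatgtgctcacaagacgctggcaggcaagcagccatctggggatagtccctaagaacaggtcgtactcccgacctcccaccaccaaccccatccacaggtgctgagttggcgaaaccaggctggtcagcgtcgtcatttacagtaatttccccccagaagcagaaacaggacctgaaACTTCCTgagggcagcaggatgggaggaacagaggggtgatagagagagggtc
C1qc, chr4:136892915-136893164: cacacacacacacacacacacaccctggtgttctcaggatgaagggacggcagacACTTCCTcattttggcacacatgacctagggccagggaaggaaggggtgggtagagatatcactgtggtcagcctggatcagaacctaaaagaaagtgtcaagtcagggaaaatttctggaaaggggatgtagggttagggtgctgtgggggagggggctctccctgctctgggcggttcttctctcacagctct
C3ar1, chr6:122856158-122856407: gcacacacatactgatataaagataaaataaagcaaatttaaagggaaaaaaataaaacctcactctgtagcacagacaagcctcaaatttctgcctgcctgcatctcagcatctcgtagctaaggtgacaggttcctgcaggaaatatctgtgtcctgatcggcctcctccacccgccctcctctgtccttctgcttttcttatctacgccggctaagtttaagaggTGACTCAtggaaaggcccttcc
C3, chr17:57228137-57228386: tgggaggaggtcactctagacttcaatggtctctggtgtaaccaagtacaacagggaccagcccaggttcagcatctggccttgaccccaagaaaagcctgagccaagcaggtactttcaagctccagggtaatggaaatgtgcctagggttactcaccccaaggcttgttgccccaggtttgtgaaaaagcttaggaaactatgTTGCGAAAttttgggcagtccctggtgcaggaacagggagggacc

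The ETS family motif AGGAAGT, which PU.1 and its relatives can bind, was found on the opposite strand of C1qb, with its first printed base at position -53 from the start, and of C1qc at -195. It is held by 9.35% of the 32851 promoter windows in the RefSeq table. The C/EBP motif TTGCGNAA was found in C3 at -45 and is held by 0.798% of windows, and the AP-1 motif TGACTCA was found in C3ar1 at -22 and is held by 5.20%. The GAS motif TTCNNNGAA (8.30% of windows) and the ISRE motif (GAAA, NN, GAAA; 3.44%) had no match in these 4 windows. Positions count from the RefSeq start, which for C1qc lies inside the gene as GENCODE M21 places it. The printed C1qc window, chr4:136892915-136893164, thus crosses the GENCODE start at chr4:136893065. A match describes letters and is no evidence of binding.

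Levels were cluster means in UMIs per 10000, that is, a gene's captured RNA molecules per 10000 molecules of the same cell, averaged over the cells of a cluster. There were 12 clusters of all cells, and 5 clusters of a subset that the tables name after Pdgfr and Gli1. Cell numbers recovered from the means came to 11406 ligated and 4199 mock cells, and median UMI totals, over the cells whose total could be recovered, lay between 1012 and 14266 per ligated cluster and between 1082 and 13715 per mock cluster. The fibroblast-like cluster 3 (1149 ligated and 188 mock cells) had the highest level of all 10 fibroblast markers among the 12 clusters, the mural-like cluster 6 (420 and 161) that of 9 of 10 mural markers, and the Schwann-like cluster 9 (271 and 17) that of all 7 Schwann markers. The macrophage-like cluster 5 (680 and 77) had the highest level of 10 of 12 macrophage and monocyte markers, and also of 7 of 8 B cell and plasma cell markers, whose summed level there was 5.14 ligated and 6.87 mock beside 70.3 and 59.0 for the macrophage list. The erythroid-like cluster 10 (60 and 85) had that of all 7 erythroid markers, and it also carried endothelial markers (summed level 79.1 ligated, 91.6 mock) and macrophage markers (19.7 and 8.25). Cluster 8, led by acinar genes, and cluster 11, led by proliferation genes, were left unnamed.

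A difference is log2((ligated + 0.1)/(mock + 0.1)). It counts as past the size rule where the higher value is at least 0.5 and the difference at least 1 in size, in clusters where both libraries held 50 cells or more. That left 9 clusters of all cells (0 to 7 and 10) and 3 of the subset (0, 2 and 3). Of 22 gene-cluster pairs of the complement genes with a value of at least 0.5 in these 9 clusters, 12 were higher in the ligated library past the rule and 2 were lower. Among all genes the background was 6.89% of pairs higher and 4.17% lower. Of the 12 higher pairs, 8 were C1q chains outside the macrophage-like and erythroid-like clusters, with mock values of 0.197 or below. A further 3 lay in the erythroid-like cluster 10, where 23.0% of all genes were higher past the rule. The remaining pair was Cfb in cluster 3. The same C1q chains were counted in several clusters, so the count of 12 is no measure of enrichment over the background.

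**Figure D1:**
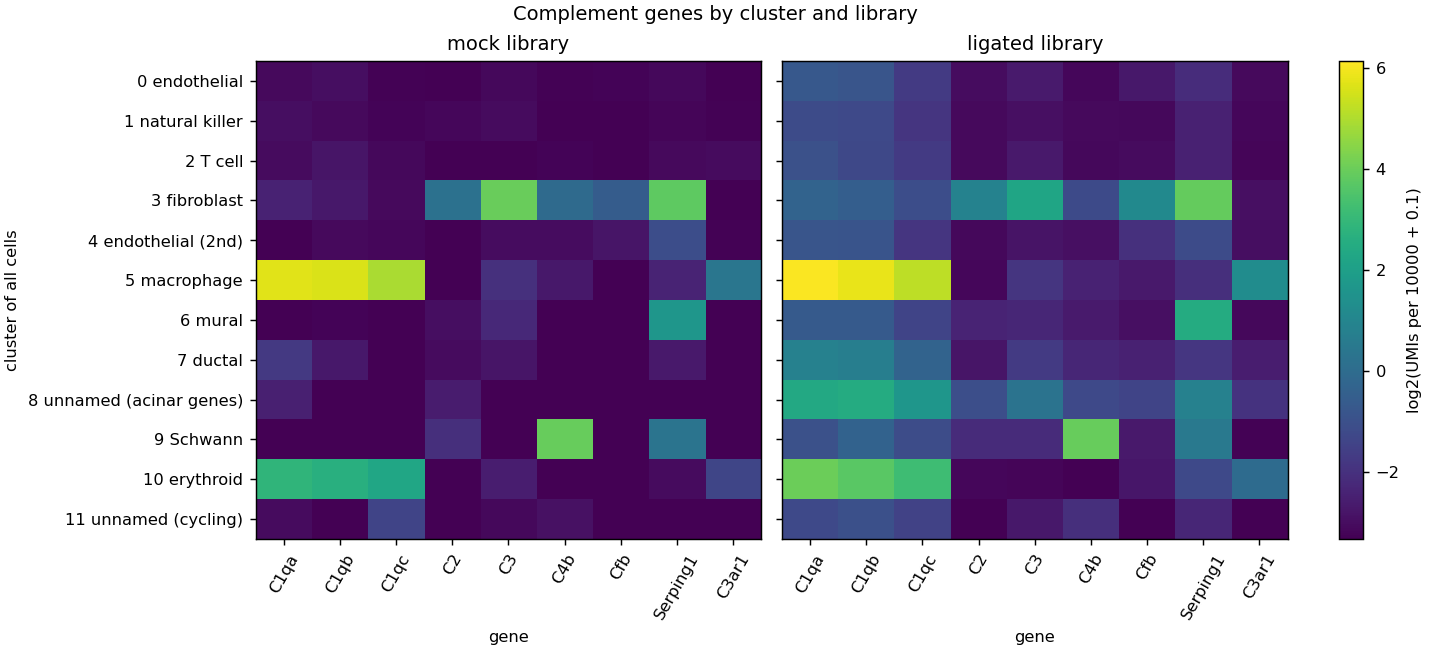
Level of each complement gene (columns) in each of the 12 clusters of all cells (rows) in the mock library (left) and the ligated library (right), as log2(UMIs per 10000 + 0.1); every cell of the map is 1 cluster mean of 1 library, and cluster names stand for "-like" clusters. The C1q genes and C3ar1 are brightest in cluster 5, C2, C3, Cfb and Serping1 in cluster 3, and C4b in cluster 9, in both libraries.

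The recognition chains C1qa, C1qb and C1qc had their highest level in the macrophage-like cluster 5 of both libraries. C1qa was at 67.0 UMIs per 10000 ligated and 52.5 mock, C1qb at 56.0 and 48.1, and C1qc at 36.3 and 30.5. The differences of 0.35, 0.22 and 0.25 did not pass the rule, although each chain had its higher value in the ligated library. In this cluster, 0 of 4 complement genes tested passed in either direction, where the background was 4.15% higher and 4.34% lower. The erythroid-like cluster 10 came next in both libraries, and in the mock library every other cluster of all cells was at 0.280 or below for each chain. In the ligated library the unnamed cluster 8 (264 cells, beside 25 mock cells) followed, with C1qa at 5.14, C1qb at 5.48 and C1qc at 2.99, against 0.0800 for C1qa and values listed at 0 for the other chains in the mock library.

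Within the subset, C1q RNA lay mostly in cluster 1, which lymphocyte genes led and which was left unnamed. With 435 ligated and only 14 mock cells it was not compared. C1qa was at 6.62 ligated and 6.84 mock there, C1qb at 5.93 and 5.69, and C1qc at 3.69 and 4.35, so the values of the 2 libraries lay close together. This cluster held 82.2% (ligated) and 81.3% (mock) of the C1qa summed level of the subset, 80.7% and 81.6% of that of C1qb, and 82.3% and 91.3% of that of C1qc. The subset as a whole had 6.62% (ligated) and 2.47% (mock) of the C1qa of all cells. Marker sums in cluster 1 were 25.3 ligated and 38.2 mock for the natural killer list, 61.4 and 52.1 for the fibroblast list and 11.1 and 8.02 for the macrophage and monocyte list, and what part a mixture of cells had in its C1q values was not tested.

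The macrophage-like cluster held most of the C1q RNA of both libraries. Its share of the summed level, which is the mean times the number of cells, was 86.0% ligated and 84.8% mock for C1qa, 84.7% and 85.5% for C1qb, and 86.8% and 84.5% for C1qc. The cluster made up 5.96% of ligated and 1.83% of mock cells. Averaged over all cells of a library, C1qa stood at 4.64 ligated and 1.13 mock (difference 1.94), C1qb at 3.94 and 1.03 (1.84), and C1qc at 2.49 and 0.663 (1.77). With the clusters of the ligated library weighted as in the mock library, the differences were 0.83, 0.74 and 0.64, and none of these passed the rule. Library means of 5 complement genes reached 0.5, of which 4 were higher past the rule at each library's own mix (background 6.38%) and 0 at the mock mix (background 2.87%).

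**Figure D2:**
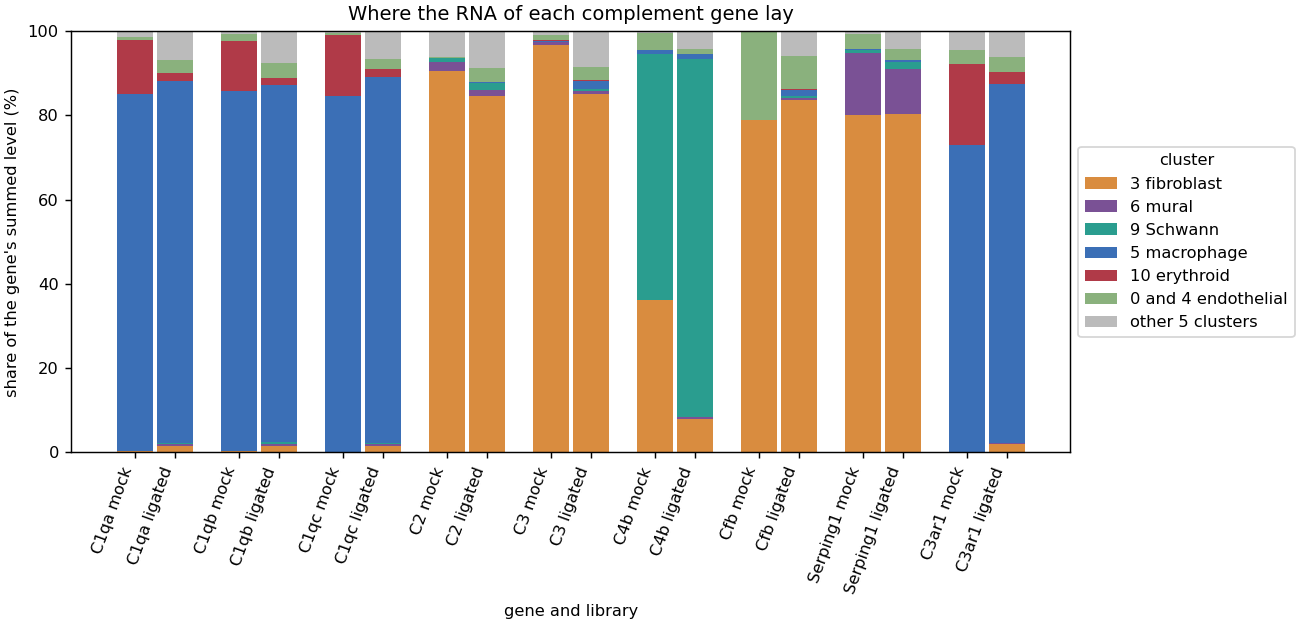
Share (%) of each complement gene's summed level held by clusters of all cells, with 1 stacked bar per gene and library; each bar adds up to 100%. The macrophage-like cluster 5 takes most of C1qa, C1qb, C1qc and C3ar1, the fibroblast-like cluster 3 most of C2, C3, Cfb and Serping1, and the Schwann-like cluster 9 most of C4b, 58.5% in the mock and 85.0% in the ligated library.

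In the 7 compared clusters of all cells other than 5 and 10, C1q values were low and higher in the ligated library as deposited. All 21 pairs of chain and cluster had the higher value in the ligated library, which ran from 0.173 to 1.68 against 0 to 0.197 in the mock library, so the ranges overlapped only at their ends. With the library's mean profile subtracted, at the median share of the library mean that markers of other cell types reached in the cluster, 8 pairs remained higher, 12 came to 0 in both libraries and C1qa in the natural killer-like cluster came to -0.02. Of the 21 pairs as deposited, 8 passed the rule. In the fibroblast-like cluster 3 C1qa was at 0.702 ligated and 0.0864 mock (difference 2.11), C1qb at 0.606 and 0.0537 (2.20), and C1qc at 0.364 and 0.0189, with both of its values under the minimum of 0.5. In the mural-like cluster 6 C1qa was at 0.535 and listed at 0 in the mock library, and C1qb was at 0.547 and 0.00725. In the ductal-like cluster 7 (278 and 201 cells), whose recovered UMI totals were among the lowest (medians 1012 and 1082), C1qa was at 1.68 and 0.197, C1qb at 1.55 and 0.0517, and C1qc at 0.709 and listed at 0. C1qa in the endothelial-like cluster 0 (2948 and 2363 cells), at 0.505 and 0.0174, was the remaining pair. The background was 3.92% higher and 2.68% lower in cluster 0, 4.92% and 4.50% in cluster 6, and 14.8% and 11.6% in cluster 7. In the natural killer-like cluster, the T cell-like cluster 2 (3.08% and 2.27%) and the second endothelial-like cluster 4 (3.29% and 2.81%), no complement gene reached the minimum of 0.5.

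Macrophage markers were found in the same clusters. In the endothelial-like cluster 0 C1qa was at 0.754% of its level in cluster 5 in the ligated library, beside a median of 0.794% over 9 macrophage markers, and at 0.0331% beside 0.114% over 10 markers in the mock library. In the fibroblast-like cluster 3 C1qa was at 1.05% beside 1.19% (ligated) and at 0.165% beside 0.124% (mock), in the mural-like cluster 6 at 0.799% beside 1.27% and at 0% beside 0%, and in the ductal-like cluster 7 at 2.50% beside 3.55% and at 0.375% beside 0.0956%. Markers of cell types other than a cluster's own also stood higher there in the ligated library: their median was 9.64% of the library mean against 4.30% (mock) in cluster 0, 9.56% against 3.26% in cluster 3, 22.4% against 4.99% in cluster 6 and 22.2% against 8.15% in cluster 7. With the subtraction at those shares, 2 of the 8 pairs past the rule were still past it, C1qa and C1qb in cluster 7. What part RNA of other cells had in the C1q values outside macrophage-like cells was not tested beyond these measurements.

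**Figure D3:**
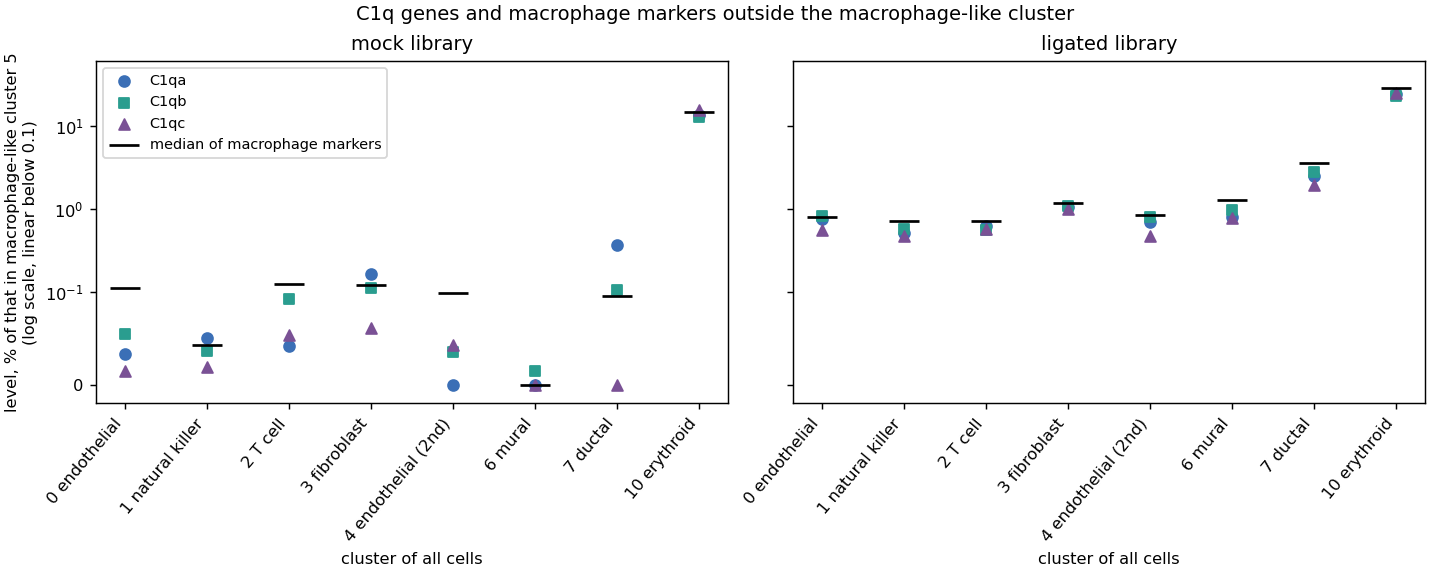
Level of C1qa, C1qb and C1qc in 8 compared clusters as a percentage of the same gene's level in the macrophage-like cluster 5 (y axis, log scale above 0.1 and linear below), in the mock library (left) and the ligated library (right); black lines are the median of macrophage markers on the same scale. In the ligated library the chains lie near the marker line in every cluster, and the erythroid-like cluster 10 is the highest in both libraries.

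In the erythroid-like cluster 10 C1qa was at 16.0 ligated and 7.09 mock (difference 1.17), C1qb at 12.8 and 6.12 (1.06) and C1qc at 9.13 and 4.73 (0.93). C3ar1 there was at 0.881 and 0.289 (1.33). The first 2 chains and C3ar1 passed the rule, 3 of 4 genes tested, in a cluster where 23.0% of all genes were higher past the rule and the median difference of all genes was 0.50. Centred on the median of all genes, C1qa was at 0.67, C1qb at 0.56 and C3ar1 at 0.84, and none was past the rule. The macrophage marker sum in that cluster moved the same way, 19.7 against 8.25, and its part in these values was not tested.

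C3ar1 followed the C1q chains across clusters. In the macrophage-like cluster it was at 2.31 ligated and 1.21 mock, a difference of 0.88 that did not pass the rule. This cluster held 85.0% of its summed level (ligated) and 73.0% (mock). The receptor was listed at 0 in 6 of the 10 clusters of all cells outside clusters 5 and 10 in the mock library, and its highest value among them was 0.162 in the ligated library, in cluster 8. None of the subset clusters had C3ar1 in the mock library.

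C3 was lower in the ligated fibroblast-like cells, with the largest negative difference of the 9 genes in the compared clusters. In cluster 3 it was at 4.62 UMIs per 10000 ligated and 15.6 mock, a mock level 3.38 times the ligated one (difference -1.73). In the fibroblast-like cluster 0 of the subset (949 and 167 cells), which is drawn from the same libraries and so gives no independent value, it was at 4.62 and 14.5 (-1.63). Cluster 3 held 85.1% (ligated) and 96.8% (mock) of the C3 summed level, and in the mock library no other cluster of all cells was above 0.146. The mean over all cells was 0.546 and 0.722 (-0.35), and at the mock mix of clusters the difference was -1.14, past the rule, where 2.47% of all genes were lower past it.

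C4b, which encodes component C4 in the mouse, was also lower in the ligated fibroblast-like cells. It was at 0.330 ligated and 0.855 mock in cluster 3 (difference -1.15) and at 0.265 and 0.731 in cluster 0 of the subset (-1.19). In the Schwann-like cluster 9 it was at 15.1 and 15.3, far above every other cluster and nearly equal in the 2 libraries. Only 17 mock cells lay behind the second value, so cluster 9 was outside the comparison. The Schwann marker sum there was 28.1 ligated and 76.7 mock, so C4b and this list did not move together. Cluster 9 made up 2.38% of ligated and 0.405% of mock cells and held 85.0% and 58.5% of the C4b summed level, and cluster 3 held 7.87% and 36.2%. Over all cells C4b was at 0.423 and 0.106 (1.34, with both values under 0.5), and at the mock mix the difference was -0.04. Of the 50-base words in the longest C4b transcript, 35.2% also occur in C4a, the neighbouring near copy, and C4a itself had values of at most 0.00317 (ligated) and 0 (mock), so reads could have been split between or withheld from the copies.

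Factor B was higher in the ligated library in the same cells. Cfb was at 2.14 ligated and 0.567 mock in cluster 3 (difference 1.74) and at 2.28 and 0.588 in cluster 0 of the subset (1.79). Cluster 3 held 83.8% of its summed level (ligated) and 78.9% (mock). The ratio of ligated to mock level was 3.76 in cluster 3, and also 3.31 in the second endothelial-like cluster 4 (0.145 and 0.0439) and 6.59 in the endothelial-like cluster 0 (0.0520 and 0.00790), where values were far lower. In the other 9 clusters of all cells Cfb was listed at 0 in the mock library. Ratios between these genes were read only for their change between the libraries. In cluster 3 the ratio of C3 to Cfb values moved from 27.5 in the mock to 2.16 in the ligated library, and that of C3 to C2 from 14.8 to 2.70. Shared exons of Cfb and C2, described below, bear on both ratios.

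C2, the partner of C4 in the classical convertase, was at 1.71 ligated and 1.05 mock in cluster 3 (difference 0.65) and at 1.84 and 1.12 in cluster 0 of the subset (0.68). Neither passed the rule. Cluster 3 held 84.5% of the C2 summed level (ligated) and 90.7% (mock). Every other cluster of all cells was at 0.383 or below in either library, the highest being the unnamed cluster 8 of the ligated library.

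Annotation bears on Cfb and C2. On the same strand, 79.5% of the exonic bases of Cfb, and 77.6% of its last 500, are shared with exons of Gm20547, a gene model at chr17:34856412-34882042 that runs from Cfb into C2 and had no row in the tables. For C2 the shares are 42.8% and 6.2%. In cluster 3 the genes with 50% or more of their last 500 exonic bases shared in this way were higher in the ligated library past the rule in 16 of 40 cases (40%), against 133 of 3689 (3.61%) of the other genes. In the 9 compared clusters such genes were higher past the rule in 34.8% (cluster 6) to 73.7% (cluster 10) of cases and the other genes in 2.05% to 22.0%. Of the 20140 genes, 3150 were listed at 0 throughout the mock library and 684 throughout the ligated library. Whether the libraries were counted alike at shared exons, and what part this had in the Cfb difference, was not tested.

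C1 inhibitor was high in fibroblast-like cells of both libraries. Serping1 was at 15.0 ligated and 13.8 mock in cluster 3 (difference 0.11) and at 15.6 and 13.4 in cluster 0 of the subset (0.22), neither past the rule. Cluster 3 held 80.3% and 80.0% of its summed level. In cluster 3, 7 of the 9 genes reached the minimum, of which C1qa, C1qb and Cfb were higher and C3 and C4b lower past the rule, where the background was 4.47% higher and 5.32% lower. In cluster 0 of the subset, 1 of 5 was higher (Cfb, background 4.75%) and 2 were lower (C3 and C4b, background 5.31%).

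Mural-like cells, which wrap small vessels, had Serping1 at 5.52 ligated and 3.01 mock in cluster 6, a difference of 0.85 that was not past the rule. In the mural-like cluster 2 of the subset (274 and 128 cells) it was at 7.39 and 3.45 (1.08), past the rule, as was C1qa at 0.524 and listed at 0 (background 4.26%). The fibroblast marker sum in that cluster was 12.3 ligated and 12.8 mock, nearly equal. The mural marker sum, that of the cluster's own list, was lower in the ligated library, at 137.5 against 217 in cluster 2 of the subset and at 124 against 208 in cluster 6. What part a shift in the makeup or state of these cells, or RNA of other cells, had in the Serping1 values was not tested. In the endothelial-like cluster 3 of the subset (260 and 82 cells) Serping1 was at 3.86 and 1.02 (1.82; background 6.29% higher and 4.23% lower). There the fibroblast marker sum was 73.5 and 20.99. C3 was at 1.03 and 0.527 without passing the rule, and C2 (0.389 and 0.0635) and Cfb (0.472 and 0.0757) stayed under the minimum. What part fibroblast RNA had in these values was not tested. In the endothelial-like clusters of all cells, where fibroblast marker sums were 2.30 and 0.295 (cluster 0) and 2.81 and 0.827 (cluster 4), Serping1 was at 0.128 and 0.0137 and at 0.341 and 0.366.

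**Figure D4:**
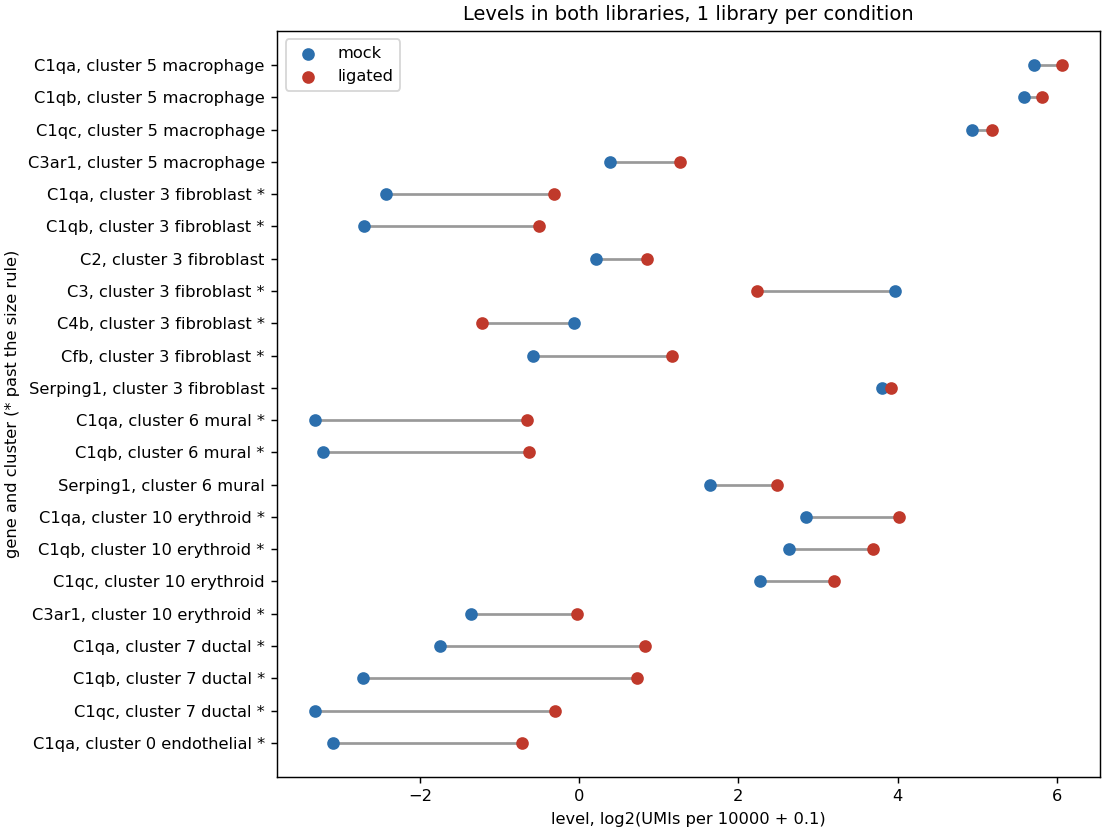
Level of the complement genes in mock (blue) and ligated (red) libraries, as log2(UMIs per 10000 + 0.1), for the 22 gene-cluster pairs of all cells with a value of at least 0.5; a star marks pairs past the size rule, and each point is 1 cluster mean of 1 library. C3 and C4b in cluster 3 are the 2 starred pairs with the mock library on the right.

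The subset held a second, small fibroblast-like cluster. Cluster 4 of the subset (17 ligated and 10 mock cells) was too small to be compared. Of the 10 fibroblast markers, it had the highest level of 6 among the subset clusters, and cluster 0 of the subset that of the other 4. The marker sums were 522 ligated and 362 mock in cluster 4 and 306 and 355 in cluster 0. Pi16 and Dpt, genes of adventitial fibroblasts, were among the markers with higher values in cluster 4. Dpt was at 40.2 ligated and 24.2 mock against 0.583 and 7.85, and Pi16 at 27.5 and 59.1 against 2.13 and 1.84. C3 in these few cells was at 26.9 and 34.1, C4b at 4.45 and 3.14, Serping1 at 16.4 and 22.2, Cfb at 1.25 and 0.229 and C2 at 0.857 and 0.281. Both C3 and C4b had higher values there than in cluster 0 of the subset in each library, and the C3 level was 5.83 times (ligated) and 2.35 times (mock) that of cluster 0. Within cluster 0 of the subset, Dpt, like C3, was lower in the ligated library, at 0.583 against 7.85, while Pi16 was at 2.13 against 1.84. In a cluster mean, fewer cells of a kind and less RNA per cell cannot be told apart, and what part the makeup of the cluster had in the C3 difference was not tested.

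**Figure D5:**
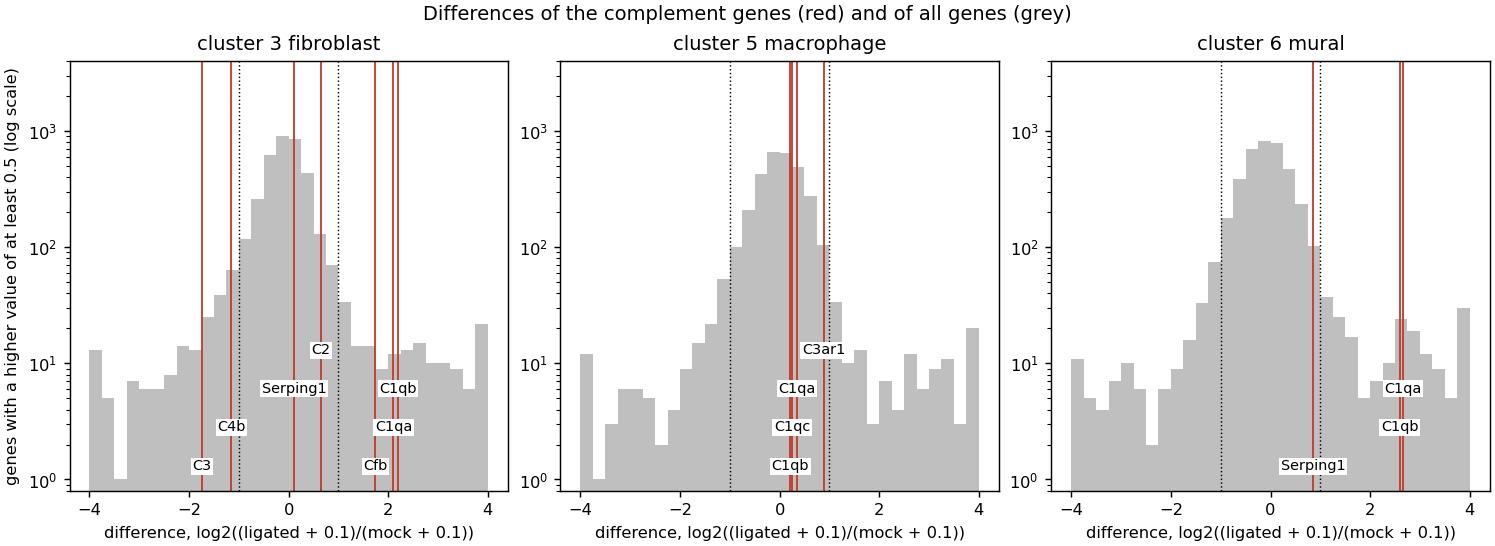
Number of genes (log scale) by difference, log2((ligated + 0.1)/(mock + 0.1)), among genes with a higher value of at least 0.5 in clusters 3, 5 and 6 of all cells (grey; the outermost bins hold all larger differences), with red lines at the complement genes and dotted lines at the rule's size of 1. In cluster 3, C3 and C4b lie left of the dotted lines and Cfb, C1qb and C1qa right of them, while all 4 genes of cluster 5 lie between them.

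Other genes of the pathway were counted by the same rule. Of 52 other complement genes in 7 lists, 37 had a row, and 19 reached 0.5 in at least 1 compared cluster of all cells. They made 64 gene-cluster pairs, 6 of them higher and 3 lower past the rule, beside the background of 6.89% and 4.17%, and their median difference in cluster 3 was -0.35 beside -0.05 for all genes. In cluster 3, 0 of 10 were higher and 2 were lower, where the background was 4.47% higher and 5.32% lower. Masp1, a protease of the lectin pathway, was at 0.0667 ligated and 0.615 mock there (difference -2.10), and Cd55, which speeds the decay of convertases on the cell surface, at 0.247 and 1.02 (-1.68). The genes of the proteases C1s and C1r, named here after their values were seen, did not pass: C1s1 was at 5.11 and 9.04 (-0.81) and C1ra at 2.85 and 3.89 (-0.43).

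Outside fibroblast-like cells, Cd59a, which blocks the membrane attack complex, was lower in the mural-like cluster 6, at 0.2496 ligated and 0.614 mock (difference -1.03; -0.96, not past the rule, when centred on the median of all genes, an alternative added for these genes after seeing the data). In the ductal-like cluster 7, 4 of 5 genes tested were higher, where the background was 14.8% higher and 11.6% lower: clusterin (Clu) at 6.07 and 0.116, Cr1l, a membrane regulator, at 0.713 and 0.296, the receptor Cd93 at 0.553 and 0.107, and calreticulin (Calr) at 2.04 and 0.813. The ductal marker sum moved the same way there, at 957 ligated and 372 mock, as did the endothelial marker sum, at 13.2 and 8.07. Markers of other cell types were also higher in this cluster of the ligated library, as given above for the C1q chains. Cr1l and Cd93 reached 0.5 only in the ligated library. What part ductal RNA or RNA of other cells had in the values of these 4 genes was not tested. Clu was also higher in cluster 10, at 1.45 and 0.489 (difference 1.39), where 23.0% of all genes were higher; centred on the median of all genes it was at 0.90 and not past the rule. In the subset's endothelial-like cluster 3, beside the fibroblast marker sums given above, the collectin Colec12 was at 1.34 and 0.329 and Lrp1 at 2.54 and 0.892. Over the 3 compared subset clusters 4 of 30 pairs were higher and 2 lower, the lower ones being Masp1 (0.0693 and 0.626) and Cd55 (0.179 and 0.721) in cluster 0. The background was 4.75% higher and 5.31% lower in cluster 0 of the subset, 4.26% and 4.26% in its cluster 2, and 6.29% and 4.23% in its cluster 3. In the macrophage-like cluster, 0 of 10 other complement genes passed, where the background was 4.15% higher and 4.34% lower. The receptor of C5a, C5ar1, named after its value was seen, was at 0.893 and 0.476 there (0.79). Of the 7 listed genes of the terminal pathway only 4 had a row, and 0 of these reached 0.5 in any compared cluster.

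The genes most like each complement gene were taken over 24 values, 12 clusters in 2 libraries, among 3499 or 3500 genes, by Pearson's r of log2(value + 0.1). Clusters of 1 library share depth and background, so r is given as a description. C1qa and C1qb were each other's nearest (r = 0.993), followed for both by Ms4a7 and C1qc. C1qc was nearest to Aif1 (0.991), Lyz2 and Ms4a7, and C3ar1 to Ly86 (0.988), Fcgr1 and Cd180, which myeloid cells express. C4b was nearest to Lgi4 (0.989) and Cdh19, genes of Schwann cells, and Kcna2. The remaining genes had extracellular matrix genes among their neighbours: C2 was nearest to Loxl1 (0.973), Fbln7 and Ctsk, Cfb to Mfap4 (0.959), Lox and Svep1, and Serping1 to P3h3 (0.970), Col6a2 and Col6a1. C3 was nearest to Srpx (0.970), Tspan11 and Medag. Between members of the fibroblast group r was 0.897 for C2 and C3, 0.896 for C2 and Cfb and 0.751 for C3 and Serping1.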

How the data were processed

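The authors deposited 4 tables of cluster means on a linear scale, in UMIs per 10000 UMIs of a cell: 12 clusters of all cells and 5 of a subset, each with both libraries together and split by condition. Every column sums to 10000, from which the unit was read. Cell Ranger 6.0.1, Seurat and mm10 are named in the submitters' processing notes; filters on cells, doublet removal and the gene annotation are not given in the sources used here. Calendar dates had replaced 21 gene names, which were restored from gene order. Cell numbers were recovered from the weights that join split and joint means (largest residual 9.2e-08) and checked on simulated data. Doublets were not called, and barcodes shared between libraries were not analysed here.

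No count model could be used on means, and 1 library per group allows no test. The size rule, the clusters compared and the reading of shares are given with the results. Clusters were named from 17 marker lists (136 genes, 4 without a row). For the subtracted values, each library's mean profile was scaled by the median share of other cell types' markers. Named genes were all 9 members, other complement genes past the size rule in a compared cluster, and the 3 genes most like each member. One gene that this rule names is not reported here. The members and lists were chosen with earlier results of these data known. The calculations used Python 3.11.15, numpy 2.4.6 and pandas 2.3.3. Alternatives were other pseudocounts, minimum values, sizes, cell minimums, subtraction, rescaling, centring and cluster mixes.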

Additional observations from a re-analysis of the deposited data

Results flagged for a closer look

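Clusters too small in the mock library to be compared still held complement RNA in the ligated library. In cluster 8 of all cells (264 ligated and 25 mock cells) C1qa was at 5.14, C1qb at 5.48, C1qc at 2.99, C3 at 1.12 and Serping1 at 1.66 UMIs per 10000, against 0.08 for C1qa and values listed at 0 for the other 4 genes in the mock library. The markers of other cell types had a median of 103% of the library mean there (ligated) and of 0% (mock), and what part this had was not tested. In the Schwann-like cluster 9 (271 and 17 cells) C1qb was at 0.690 and listed at 0. In cluster 4 of the subset (17 and 10 cells) C2 was at 0.857 and 0.281 and Cfb at 1.25 and 0.229.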

How the results depend on the processing

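No difference past the size rule changed sign under any alternative tried. The 12 higher pairs in all cells became 4 with a pseudocount of 1, 29 with no minimum value, 3 with a minimum of 2 and 5 with the mean profile subtracted. The 2 lower pairs became 1 with a pseudocount of 1 or a minimum of 2 (C3 in cluster 3) and 0 with a size of 2. In the subset, the 4 higher pairs became 2 with a pseudocount of 1, 14 with no minimum and 1 with a size of 2, and the 2 lower pairs became 1 with a pseudocount of 1 or a minimum of 2 and 0 with a size of 2. A pseudocount of 0.01, rescaling without genes listed in 1 library, centring and a minimum of 15 cells kept these counts within 1.5 times. No paired analysis was possible because each group is 1 library, and no replicate could be left out. Depth limited values near 0: ductal-like cells had median recovered totals of 1012 and 1082 UMIs.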
